A study of Homo sapiens with 15 samples.

Results

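The genes described here copy the genome and then divide it. The set holds 53 genes of DNA replication and mitosis, chosen by name as 27 genes of S phase and 26 genes of mitosis. A gene was kept when its normalized count reached 10 in 3 or more of the 15 libraries. All 53 met that rule, as did 10051 of the 19845 names in the tables.

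RNA was measured in HCC1954, a human breast cancer line labelled HER2-positive, and in brain-tropic derivatives of that line. The derivatives were metachronous metastatic cells (M-BM, 4 libraries), latent or residual cells (Lat, 4 libraries) and synchronous metastatic cells (S-BM, 4 libraries), and the parental line (Pa) gave 3 libraries. No group carried a further allele or agent according to the labels. For every group the protocol gives overnight culture in a medium named R3F before total RNA was taken. Each library therefore reads cultured cells of a single tumour line rather than brain tissue. The labels do not say from how many animals or clones each derivative came.

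Before S phase, the origin recognition complex, CDC6 and CDT1 load the MCM2-7 ring onto DNA. Cyclin E with its kinase then triggers firing, CDC45 and the GINS complex join the ring to form the active helicase, and polymerases, the PCNA clamp and its loader copy the strands. Genes of this phase are classic targets of E2F transcription factors, which the retinoblastoma protein restrains. Genes of mitosis peak later, under the DREAM and MuvB complexes with B-MYB and FOXM1, which reach promoters through an element called the cell cycle genes homology region (CHR). Cyclin B with CDK1, the Aurora and Polo kinases, the spindle checkpoint and the anaphase-promoting complex then order chromosome segregation.

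The promoters of each gene group often held the motif known for that class. RefSeq promoters on GRCh38.p14, from 250 bases before to 50 bases after the start, were on hand for 44 members, 24 of S phase and 20 of mitosis. An E2F word, TTTCCCGC or TTTGGCGC on either strand, stood in 15 of 24 S phase promoters and in 2 of 20 mitotic ones, against 2.31% of all 27305 promoters. A CHR word, TTTGAA or TTCGAA on either strand, stood in 2 of 24 S phase promoters and in 13 of 20 mitotic ones, against 16.6% of all promoters. The CCAAT box, searched on both strands, was in 14 of 24 S phase and 17 of 20 mitotic promoters, against 35.7% of all. In no member promoter did an E2F and a CHR word overlap. Of the members without a promoter in the table, MCM5, CCNE2, AURKA, BIRC5 and TPX2 are described below by their values only.

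**Figure D1:**
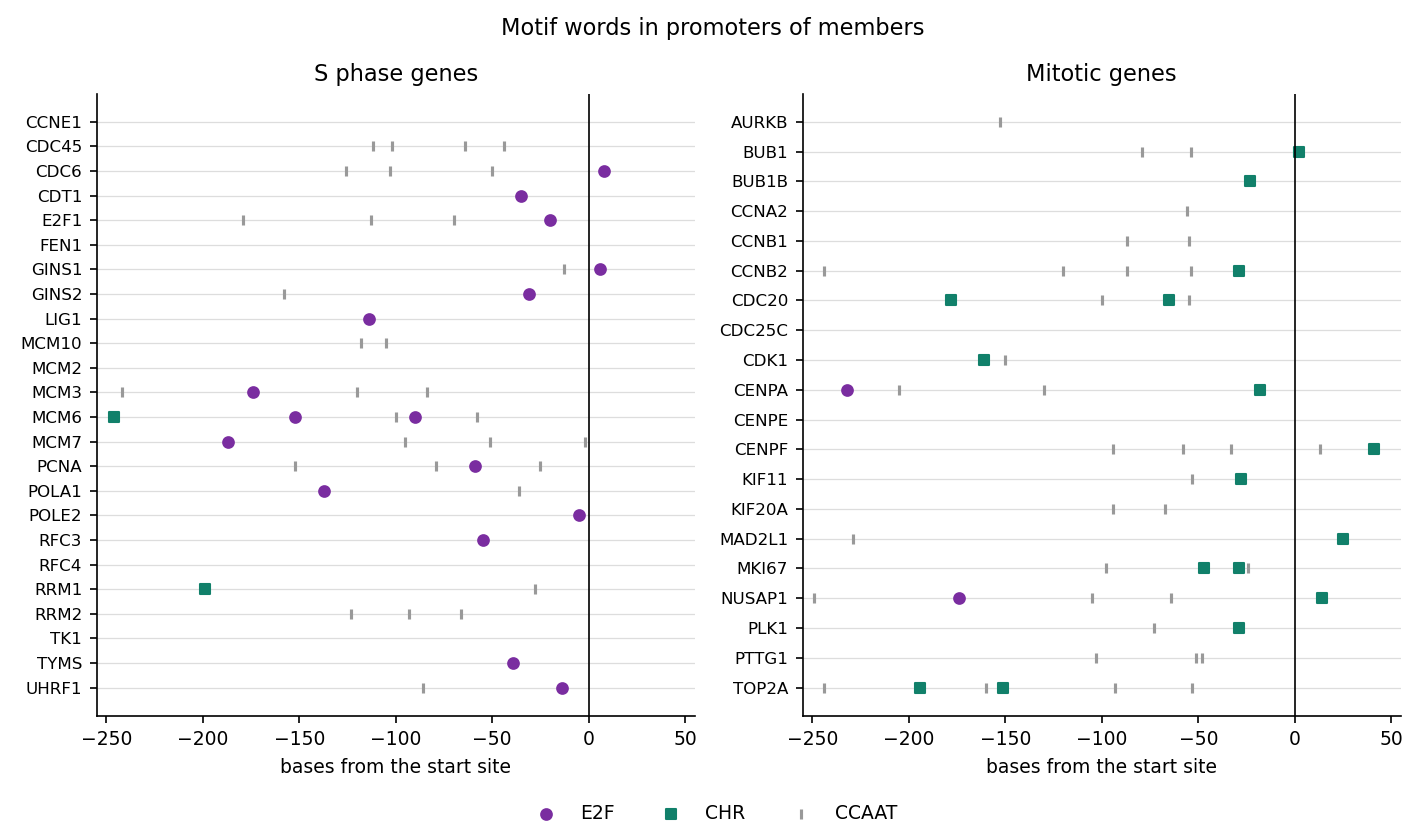
Positions of E2F words (circles), CHR words (squares) and CCAAT boxes (ticks) in the promoters of 24 S phase genes (left) and 20 mitotic genes (right), in bases from the annotated start at 0. E2F words fill the left panel, in 15 of 24 promoters, and CHR words the right one, in 13 of 20.

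The promoters below span 100 bases before to 50 bases after the start, 5′ to 3′ on the strand of the gene. The first 3 are S phase promoters with the E2F word in capitals, shown because the same kind of word lies in the promoters of genes whose RNA was higher (GINS2 and CDC6) and lower (TYMS) in Lat and M-BM than in S-BM. GINS2 lies at chr16:85688905-85689054 on the minus strand, CDC6 at chr17:40287779-40287928 on the plus strand and TYMS at chr18:657553-657702 on the plus strand. The last 3 are mitotic promoters with CHR words in capitals, from MAD2L1, which was higher in Lat and M-BM than in S-BM, and from PLK1 and MKI67, which did not pass the test. MAD2L1 lies at chr4:120066799-120066948 on the minus strand, PLK1 at chr16:23678789-23678938 on the plus strand and MKI67 at chr10:128126374-128126523 on the minus strand.
GINS2: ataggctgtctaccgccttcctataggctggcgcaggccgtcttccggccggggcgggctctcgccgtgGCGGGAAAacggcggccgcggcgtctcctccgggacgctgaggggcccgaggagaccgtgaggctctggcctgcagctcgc
CDC6: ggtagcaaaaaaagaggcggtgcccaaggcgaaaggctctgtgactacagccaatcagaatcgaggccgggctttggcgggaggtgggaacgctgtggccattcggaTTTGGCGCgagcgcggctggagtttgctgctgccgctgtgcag
TYMS: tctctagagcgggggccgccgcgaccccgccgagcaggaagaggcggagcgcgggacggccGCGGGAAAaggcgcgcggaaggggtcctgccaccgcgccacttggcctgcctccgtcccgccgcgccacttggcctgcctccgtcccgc
MAD2L1: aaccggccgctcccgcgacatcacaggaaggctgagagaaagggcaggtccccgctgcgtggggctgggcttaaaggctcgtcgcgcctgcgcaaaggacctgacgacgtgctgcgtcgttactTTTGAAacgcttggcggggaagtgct
PLK1: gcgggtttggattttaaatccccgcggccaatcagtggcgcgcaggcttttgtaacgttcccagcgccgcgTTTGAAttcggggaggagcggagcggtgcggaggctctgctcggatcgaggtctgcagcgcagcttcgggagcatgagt
MKI67: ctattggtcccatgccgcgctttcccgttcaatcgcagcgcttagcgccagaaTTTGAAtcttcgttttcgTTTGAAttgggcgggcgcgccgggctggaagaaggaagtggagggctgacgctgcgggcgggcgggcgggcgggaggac

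Genes with and without the searched words of their class both included members that rose. Only the spellings given above were searched, so a promoter counted as without a word may hold another form of the motif. Among tested S phase genes with a promoter in the table, 6 of the 14 with an E2F word and 7 of the 9 without one were called higher in M-BM than in S-BM, against 26.9% of all tested genes. In Lat these were 9 of 14 and 8 of 9, against 30.2% of all tested genes. Calls are those of the limma test described below. In Lat their median log2 fold changes were 0.47 with the word and 0.43 without it. Among mitotic genes, 6 of the 13 with a CHR word and 4 of the 7 without one were higher in M-BM. In Lat these were 6 of 13 and 3 of 7, with medians of 0.32 and 0.26. In M-BM the medians were 0.29 with the E2F word and 0.33 without it, and 0.26 with the CHR word and 0.43 without it. Without S-BM 3 and S-BM 4, libraries set apart by a marker given below, the E2F counts were 5 of 14 and 5 of 9 in M-BM and 6 of 14 and 6 of 9 in Lat. The CHR counts were then 4 of 13 and 2 of 7 in M-BM and 4 of 13 and 3 of 7 in Lat. Of all tested genes, 22.6% were then higher in M-BM and 26.1% in Lat. Medians in the E2F classes were then 0.215 with the word and 0.348 without it in M-BM, and 0.359 and 0.441 in Lat. The order in Lat was thus the reverse of that with all libraries. Medians in the CHR classes were then 0.15 with the word and 0.27 without it in M-BM, and −0.01 and 0.09 in Lat. A word that matches is a description of the sequence, not evidence of binding.

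Libraries held 13.25 to 21.84 M reads in the 12 derivative libraries and 15.51 to 18.66 M reads in Pa, and 3 reads corresponded to a normalized count of 0.136 to 0.225. Nothing in the labels tells separate cultures or animals from repeat libraries of a culture, and the p-values below may therefore reflect technical spread alone. S-BM 3 and S-BM 4 stood apart by ERBB2, the receptor that defines the HER2 label. Its normalized counts there were 353.1 and 367.3. The other S-BM libraries had 4109 and 4642, and the M-BM and Lat libraries 2801 to 4184. All 6 epithelial markers reached 10 in every group, and neuronal markers did not reach 10 in any library. Of 3 astrocyte markers SLC1A3 alone reached it, with a summed level of the list of 32.0 to 79.6 in M-BM, 36.7 to 49.0 in Lat, 172.5 to 324.8 in S-BM and 317.9 to 432.1 in Pa. The 3 endothelial markers summed to 4.67 to 11.2 in M-BM, 6.90 to 7.64 in Lat, 13.3 to 26.8 in S-BM and 20.5 to 28.6 in Pa. Of 3 oligodendrocyte markers MBP alone reached 10, and the list summed to 101.6 to 157.3 in M-BM, 97.3 to 126.5 in Lat, 77.1 to 106.2 in S-BM and 106.2 to 113.0 in Pa. The 4 microglial and leukocyte markers summed to 16.5 to 22.0 in M-BM, 21.5 to 38.9 in Lat, 11.4 to 29.3 in S-BM and 17.7 to 21.1 in Pa. The 4 fibroblast markers summed to 5.85 to 11.1 in M-BM, 6.04 to 21.4 in Lat, 3.25 to 6.52 in S-BM and 7.33 to 10.1 in Pa. The part of these differences in the results below was not tested, and counts of calls against S-BM are also given without S-BM 3 and S-BM 4.

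Replication genes were broadly higher in Lat and in M-BM than in S-BM, and part of the mitotic genes were higher with them. A gene was tested when it reached a normalized count of 10 in at least 4 of the 12 derivative libraries. That filter kept 52 members and left out POLE2. In Lat against S-BM, 20 of 26 tested S phase genes were higher, 4 were lower and 2 were not called (limma, Benjamini-Hochberg adjusted p below 0.05 over 9646 genes). Of all tested genes, 30.2% were called higher and 29.4% lower in that comparison. The mitotic genes gave 13 higher, 1 lower and 12 not called of 26. The median log2 fold change was 0.47 for S phase genes and 0.32 for mitotic genes, against 0.01 for all tested genes. Library values did not overlap between Lat and S-BM for 20 S phase and 11 mitotic genes, and for 54.5% of all tested genes.

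In M-BM against S-BM the S phase count was smaller and the mitotic count about the same. There, 15 S phase genes were higher, 3 lower and 8 not called, and 14 mitotic genes were higher, 1 lower and 11 not called. The background was 26.9% of all tested genes higher and 25.8% lower. Medians were 0.32 for S phase genes and 0.34 for mitotic genes, against 0.01 for all tested genes. Values did not overlap between M-BM and S-BM for 14 S phase and 12 mitotic genes, and for 46.2% of all tested genes. Both comparisons use the same 4 S-BM libraries, so their results are not independent of each other. In bulk RNA a lower share of cells in a phase and less RNA per cell in that phase cannot be told apart.

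Leaving out S-BM 3 and S-BM 4 lowered most counts and turned the direction of no called member. In M-BM, 12 S phase genes were then higher and 2 lower, and 10 mitotic genes were higher and 4 lower, against 22.6% of all tested genes higher and 23.1% lower. In Lat, 15 S phase genes were higher and 3 lower, and 11 mitotic genes were higher and 3 lower, against 26.1% and 26.9%. Medians were then 0.29 for S phase and 0.26 for mitotic genes in M-BM, and 0.40 and 0.15 in Lat. Library values then did not overlap for 17 S phase and 17 mitotic genes in M-BM, against 59.1% of all tested genes, and for 21 and 14 in Lat, against 65.4%. Among members not called, the sign turned for MCM3 in M-BM (0.28 with all libraries and −0.02 without the pair), for CCNB2 in Lat, and for BUB1B, TTK and CENPF in both comparisons. Those 8 values lay between −0.12 and −0.01 without the pair. The calls that ended in Lat were those of MCM3, MCM6, MCM10, CDT1, RFC4, TK1, BUB1 and NUSAP1. In M-BM they were those of MCM6, CDC45, RFC4, TK1, AURKB, KIF11, CENPE and NUSAP1. MKI67 and CENPA were then called lower in both comparisons, and FOXM1 in M-BM.

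**Figure D2:**
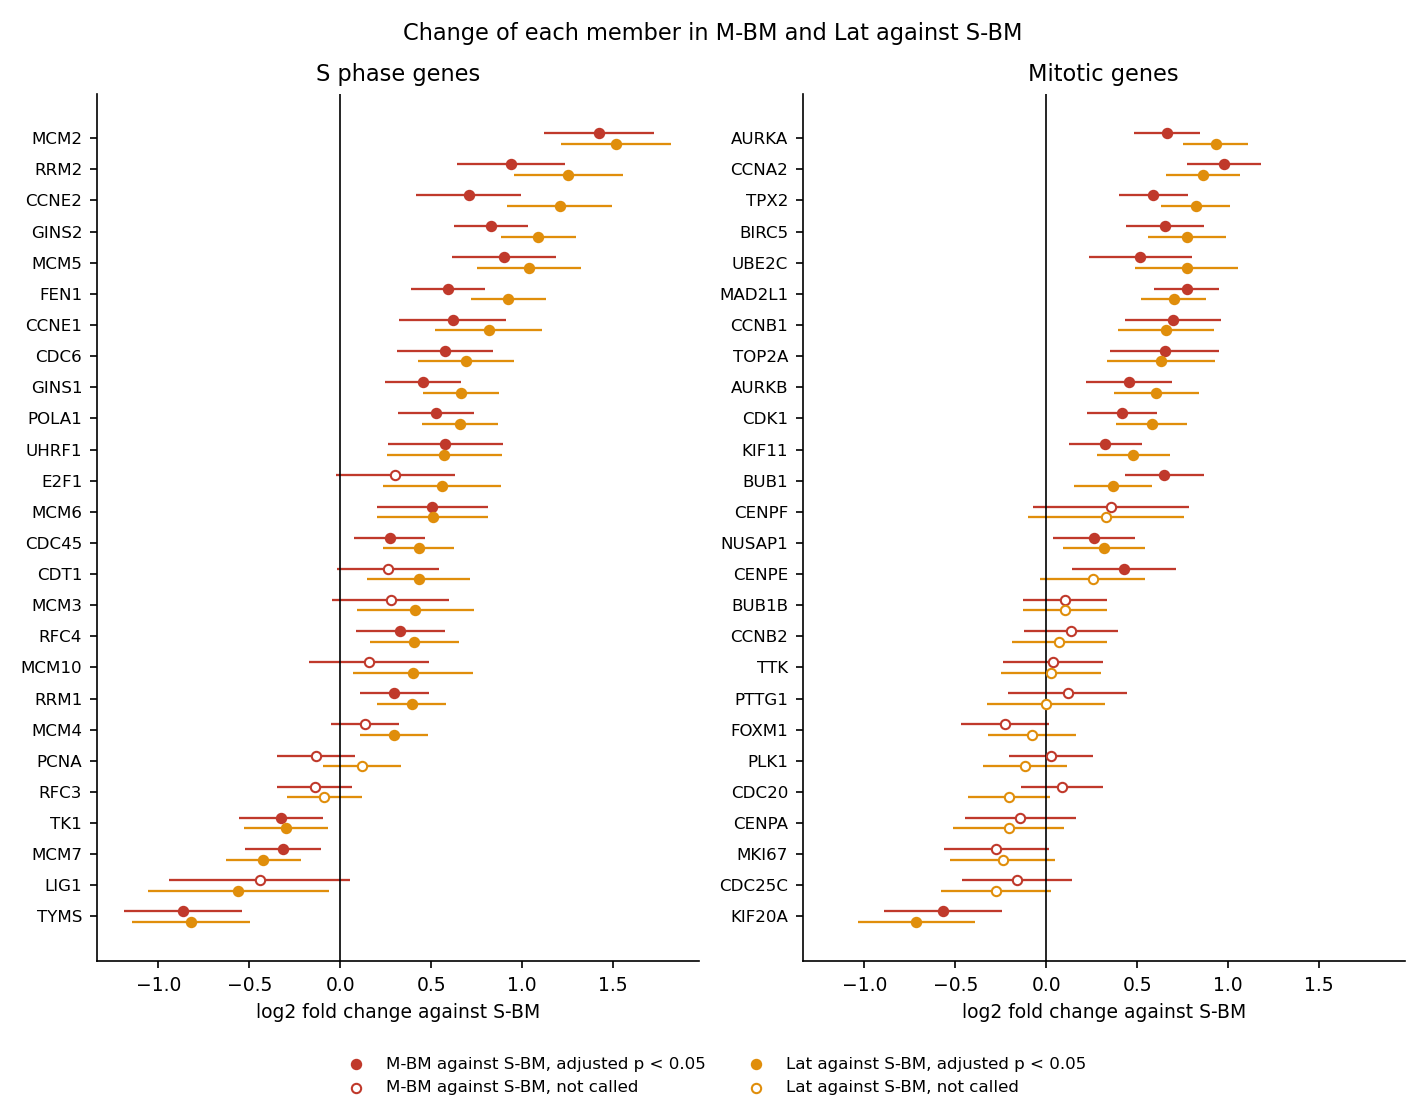
Log2 fold change of each tested member against S-BM, with 95% confidence intervals, for 26 S phase genes (left) and 26 mitotic genes (right); M-BM in red above Lat in orange, filled where the adjusted p was below 0.05 (limma). MCM2 stands highest at 1.43 in M-BM and 1.52 in Lat, and TYMS and KIF20A lowest in their panels.

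Within the replicative helicase the subunits did not move as one. MCM2, a ring subunit at chr3:127598411-127622436, had normalized counts of 109.4, 75.1, 84.0 and 63.6 in M-BM and 92.0, 85.6, 98.7 and 73.4 in Lat, against 31.4, 28.7, 28.2 and 30.6 in S-BM. Every M-BM and Lat library lay above every S-BM library. This was the largest rise of any member, with a log2 fold change of 1.43 ± 0.14 (SE) in M-BM (adjusted p = 5.6e-06) and 1.52 ± 0.14 in Lat (adjusted p = 1.5e-06). MCM5, its neighbour in the ring, had 133.3, 124.0, 117.0 and 85.8 in M-BM and 133.0, 120.3, 122.1 and 125.9 in Lat, against 68.2, 48.9, 61.6 and 64.7 in S-BM. It rose by 0.90 ± 0.13 in M-BM (adjusted p = 9.8e-05) and 1.04 ± 0.13 in Lat (adjusted p = 1.9e-05), again with no overlap.

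MCM7, another subunit of the same ring, went the other way. Its normalized counts were 161.7, 141.1, 135.2 and 139.7 in M-BM and 147.0, 134.6, 126.0 and 127.5 in Lat, against 174.9, 209.1, 161.5 and 174.8 in S-BM. M-BM 1 reached just into the S-BM range and Lat did not. The fall was −0.31 ± 0.10 on the log2 scale in M-BM (adjusted p = 0.015) and −0.42 ± 0.10 in Lat (adjusted p = 0.0019). The MCM7 locus shares 8.94% of its exon bases with AP4M1 on the opposite strand, and the library kit does not mark strand. AP4M1 averaged 5.45 in M-BM and 4.59 in Lat, against 10.7 in S-BM.

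MCM6 rose in both comparisons, by 0.51 ± 0.14 in each, and averaged 120.7 ± 20.8 in M-BM and 120.5 ± 17.6 in Lat against 84.2 ± 11.3 in S-BM (SD, n = 4 each). MCM4 was called in Lat, at 0.30 ± 0.09 (adjusted p = 0.0092), and at 0.14 ± 0.09 it did not pass the test in M-BM (adjusted p = 0.20). MCM3 was called in Lat at 0.41 ± 0.15 (adjusted p = 0.029), a call that ended without any 1 of S-BM 3, S-BM 4, Lat 1 or Lat 2, with adjusted p between 0.071 and 0.096. In M-BM its change of 0.28 ± 0.15 did not pass (adjusted p = 0.14) except without S-BM 2, where it was 0.41 (adjusted p = 0.025).

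Set per length of the annotated exons, the 6 ring subunits showed a shift in balance. Mean normalized counts per kb of exon for MCM2 were 16.9 ± 4.0 in M-BM and 17.8 ± 2.2 in Lat, against 6.06 ± 0.31 in S-BM (SD, n = 4 each). MCM2 was the subunit with the lowest count per kb in M-BM 2, in Lat 4 and in all S-BM libraries. In the other M-BM and Lat libraries and in Pa the lowest was MCM5, at 8.77 ± 1.45 per kb in Pa (n = 3). MCM7 had 32.9 ± 2.7 in M-BM and 30.5 ± 2.2 in Lat, against 41.1 ± 4.6 in S-BM. The ratio of MCM2 to MCM7, both per kb, was 0.456 to 0.676 in M-BM and 0.575 to 0.783 in Lat, against 0.137 to 0.179 in S-BM. In Pa it was 0.371 to 0.439, above every S-BM library and below every M-BM and Lat library. A transcript antisense to MCM2 covers 22.7% of its exon bases and was not analysed here.

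**Figure D3:**
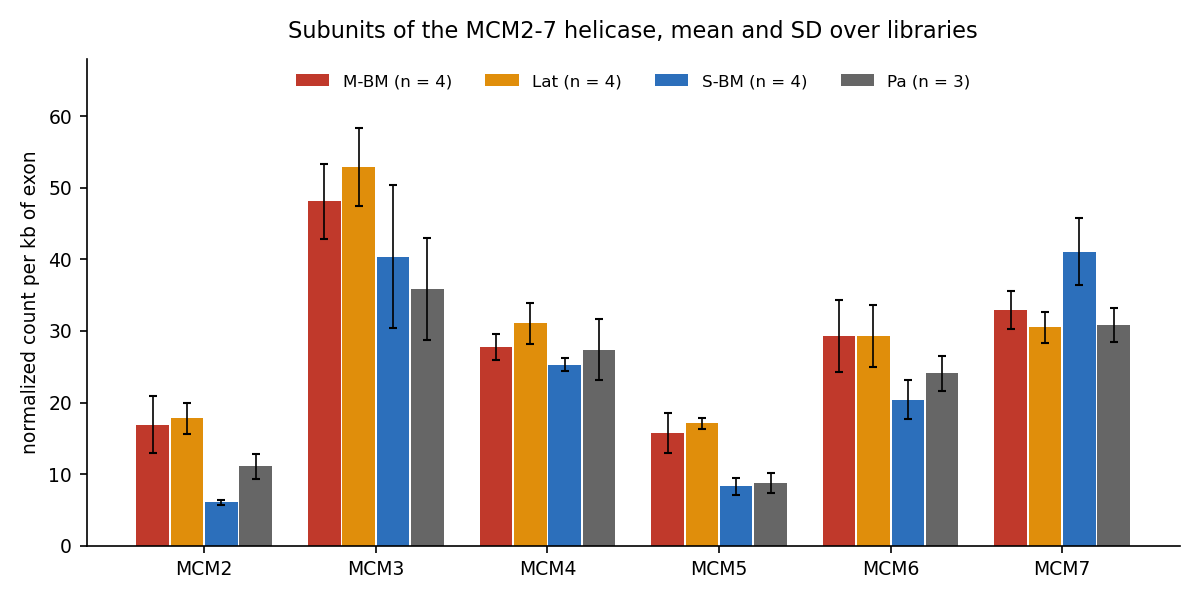
Mean normalized count per kb of exon for MCM2 to MCM7 in M-BM, Lat, S-BM (n = 4 each) and Pa (n = 3), with SD as error bars. MCM2 is lowest in S-BM at 6.06, and MCM7 is highest there at 41.1.

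Of the members that load and activate the ring, GINS2 rose most. GINS2, a subunit of the GINS complex, had 44.3, 47.4, 44.0 and 39.4 in M-BM and 53.5, 53.1, 51.5 and 52.2 in Lat, against 27.8, 25.2, 21.7 and 22.4 in S-BM. The 3 groups were separate from one another. Its log2 fold change was 0.83 ± 0.09 in M-BM (adjusted p = 1.5e-05) and 1.09 ± 0.09 in Lat (adjusted p = 1.0e-06). GINS1 of the same complex rose by 0.45 ± 0.10 in M-BM and 0.66 ± 0.10 in Lat. CDC45, which binds the ring together with GINS, rose by 0.27 ± 0.09 in M-BM (adjusted p = 0.022) and 0.43 ± 0.09 in Lat (adjusted p = 0.0011). The M-BM call for CDC45 ended without S-BM 3, S-BM 4 or M-BM 2, at adjusted p of 0.051 to 0.069.

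CDC6, the ATPase that loads the ring, had 162.8, 143.1, 177.1 and 166.8 in M-BM and 181.4, 180.1, 190.3 and 152.6 in Lat, against 120.3, 131.6, 92.8 and 93.4 in S-BM. No library of M-BM or Lat fell into the S-BM range. The rise was 0.58 ± 0.12 in M-BM (adjusted p = 0.0015) and 0.69 ± 0.12 in Lat (adjusted p = 0.00028). CDC6 lies at chr17:40287879-40304657, on the same chromosome as ERBB2 (chr17:39688094-39728658). TOP2A, a mitotic member described below, also lies near there, at chr17:40388525-40417896. The lowest S-BM values of CDC6 were in S-BM 3 and S-BM 4, the libraries with low ERBB2. MCM3 on chromosome 6 and MCM6 on chromosome 2 also had their lowest S-BM values there. For TOP2A, S-BM 1 at 952.2 lay between S-BM 3 at 960.9 and S-BM 4 at 932.2. The part of gene position in these values was not tested. The CDC6 call held in both comparisons without S-BM 3 and S-BM 4. The other loading factor, CDT1, was called in Lat at 0.43 ± 0.13 (adjusted p = 0.012). In M-BM its 0.26 ± 0.13 did not pass (adjusted p = 0.10), although without M-BM 4 it was 0.38 (adjusted p = 0.022). MCM10, an initiation factor outside the ring, was called in Lat at 0.40 ± 0.15 (adjusted p = 0.037). That call ended without any 1 of S-BM 2, S-BM 3, S-BM 4, Lat 1, Lat 2 or Lat 3, with adjusted p of 0.054 to 0.10. In M-BM MCM10 was at 0.16 ± 0.15 (adjusted p = 0.40), and without M-BM 2 at 0.32 (adjusted p = 0.042).

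Among 20 tested genes of origin licensing and firing that are not members, 11 were higher and 2 lower in M-BM, and 13 were higher and 1 lower in Lat. Without S-BM 3 and S-BM 4 these were 4 and 2 in M-BM and 7 and 1 in Lat. The higher genes were 55% of the list in M-BM and 65% in Lat, against 26.9% and 30.2% of all tested genes. Without the pair, 22.6% and 26.1% of all tested genes were higher. ORC6, the smallest subunit of the origin recognition complex, averaged 42.4 ± 5.1 in M-BM and 44.1 ± 1.5 in Lat, against 17.9 ± 1.7 in S-BM (SD, n = 4 each). TIMELESS, a fork protection protein, averaged 28.2 ± 3.1 in M-BM and 27.5 ± 4.3 in Lat, against 49.0 ± 10.5 in S-BM. Its log2 fold change was −0.76 ± 0.15 in M-BM (adjusted p = 0.00097) and −0.80 ± 0.15 in Lat (adjusted p = 0.00049).

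At the fork itself the response was mixed. FEN1, the flap endonuclease that trims Okazaki fragments, rose by 0.59 ± 0.10 in M-BM (adjusted p = 0.00019) and 0.93 ± 0.10 in Lat (adjusted p = 3.4e-06). POLA1, the catalytic subunit of the priming polymerase, rose by 0.53 ± 0.10 in M-BM and 0.66 ± 0.10 in Lat. The sliding clamp PCNA had 299.2, 272.7, 253.7 and 272.4 in M-BM and 352.8, 352.1, 340.1 and 271.4 in Lat, against 323.1, 276.7, 291.8 and 314.6 in S-BM. The groups overlapped, and the changes of −0.13 ± 0.10 in M-BM and 0.12 ± 0.10 in Lat did not pass the test (adjusted p = 0.27 and 0.31).

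LIG1, which seals Okazaki fragments, had 31.9, 37.2, 17.4 and 20.6 in M-BM and 27.3, 24.5, 15.8 and 28.7 in Lat, against 36.5, 43.4, 28.6 and 33.7 in S-BM. It was called lower in Lat at −0.56 ± 0.23 with an adjusted p of 0.0497, close to the threshold, and at −0.44 ± 0.23 in M-BM it was not called (adjusted p = 0.12). The Lat call ended without any 1 of S-BM 1, S-BM 2, S-BM 4, Lat 1, Lat 2 or Lat 3, with adjusted p of 0.052 to 0.16. Without M-BM 2 the M-BM change was −0.62 (adjusted p = 0.037). Of the clamp loader, RFC4 rose in M-BM by 0.33 ± 0.11 (adjusted p = 0.026) and in Lat by 0.41 ± 0.11 (adjusted p = 0.0071), and RFC3 was at −0.14 ± 0.10 and −0.09 ± 0.10 (adjusted p = 0.24 and 0.45). The M-BM call for RFC4 ended without S-BM 3, S-BM 4 or M-BM 1, at adjusted p of 0.059 to 0.082. POLE2, a subunit of the leading-strand polymerase, stayed between 6.58 and 10.1 in the 12 derivative libraries and was at 9.49 to 13.1 in Pa.

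Of 28 further fork genes tested, 11 were higher and 1 lower in M-BM, and 13 were higher and 1 lower in Lat. Without S-BM 3 and S-BM 4 there were 7 higher and 1 lower in M-BM and 10 higher and 2 lower in Lat. With all libraries 39.3% of the list was higher in M-BM and 46.4% in Lat, against 26.9% and 30.2% of all tested genes. Without the pair, 22.6% and 26.1% of all tested genes were higher. POLE3, a small subunit of the leading-strand polymerase, averaged 291.4 ± 35.0 in M-BM and 327.3 ± 29.6 in Lat, against 150.1 ± 14.6 in S-BM (SD, n = 4 each). It rose by 0.95 ± 0.11 in M-BM (adjusted p = 1.2e-05) and 1.12 ± 0.11 in Lat (adjusted p = 1.7e-06).

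Among members of nucleotide synthesis, both reductase subunits were called higher, and TYMS and TK1 of the thymidylate branch were called lower. RRM2, the cell-cycle-regulated subunit of ribonucleotide reductase, had 225.7, 251.6, 245.1 and 224.4 in M-BM and 283.6, 303.4, 339.5 and 258.9 in Lat, against 170.3, 120.0, 105.3 and 105.9 in S-BM. The 3 groups did not overlap. Its log2 fold change was 0.94 ± 0.14 in M-BM (adjusted p = 9.6e-05) and 1.26 ± 0.14 in Lat (adjusted p = 5.5e-06). The large subunit RRM1 rose by 0.30 ± 0.09 in M-BM and 0.39 ± 0.09 in Lat. A second gene model on the same strand covers 20.2% of the RRM2 exon bases and was not analysed here.

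TYMS, the thymidylate synthase, fell most of the S phase genes. Its normalized counts were 25.3, 14.95, 16.4 and 17.5 in M-BM and 17.9, 22.0, 16.1 and 19.5 in Lat, against 29.9, 33.1, 34.9 and 38.1 in S-BM. Every S-BM library was above every M-BM and Lat library. The change was −0.86 ± 0.15 in M-BM (adjusted p = 0.00035) and −0.82 ± 0.15 in Lat (adjusted p = 0.00038). ENOSF1 covers 39.1% of the TYMS exon bases on the opposite strand and averaged 20.5 in M-BM and 16.5 in Lat, against 25.1 in S-BM, so reads of the pair cannot be told apart.

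TK1, the thymidine kinase of the salvage route, had 107.1, 85.8, 90.9 and 82.0 in M-BM and 91.9, 82.5, 111.0 and 88.3 in Lat, against 112.6, 106.4, 120.3 and 118.8 in S-BM. The groups overlapped at M-BM 1 and Lat 3. It was called lower at −0.33 ± 0.11 in M-BM (adjusted p = 0.020) and −0.30 ± 0.11 in Lat (adjusted p = 0.028). The M-BM call ended without S-BM 3, M-BM 2 or M-BM 4 (adjusted p of 0.051 to 0.060). The Lat call ended without S-BM 3, S-BM 4, Lat 1, Lat 2 or Lat 4 (adjusted p of 0.060 to 0.091). Among 21 further genes of nucleotide supply, 3 were higher and 3 lower in each comparison, 14.3% each way. Of all tested genes, 26.9% were higher and 25.8% lower in M-BM, and 30.2% and 29.4% in Lat. Without S-BM 3 and S-BM 4 the list counts were 3 and 3 in M-BM and 2 and 3 in Lat. The shares of all tested genes were then 22.6% and 23.1% in M-BM, and 26.1% and 26.9% in Lat. DTYMK, the kinase that acts on the product of TYMS and TK1, averaged 36.9 ± 5.5 in M-BM and 39.7 ± 2.9 in Lat, against 27.3 ± 3.4 in S-BM, and rose by 0.42 ± 0.12 (adjusted p = 0.010) and 0.53 ± 0.12 (adjusted p = 0.0019) on the log2 scale.

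Of the members that regulate S phase entry, both E cyclins rose, and E2F1 was called in Lat and not in M-BM. CCNE1, cyclin E1, had 18.7, 22.3, 21.9 and 19.4 in M-BM and 24.2, 21.9, 28.99 and 20.4 in Lat, against 10.3, 15.2, 13.6 and 13.5 in S-BM. The ranges were apart, and it rose by 0.62 ± 0.14 in M-BM (adjusted p = 0.0019) and 0.82 ± 0.14 in Lat (adjusted p = 0.00018). CCNE2, cyclin E2, had 47.1, 58.2, 43.8 and 45.7 in M-BM and 68.9, 72.4, 78.1 and 57.9 in Lat, against 23.5, 34.5, 32.7 and 27.6 in S-BM. It rose by 0.71 ± 0.13 in M-BM (adjusted p = 0.00064) and 1.21 ± 0.13 in Lat (adjusted p = 5.7e-06). INTS8 covers 37.0% of the CCNE2 exon bases on the opposite strand and averaged 221 in M-BM and 204 in Lat, against 216 in S-BM. Its part in the CCNE2 counts was not tested.

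E2F1, the activating transcription factor, had 20.4, 19.8, 13.7 and 13.7 in M-BM and 18.6, 20.2, 24.4 and 17.5 in Lat, against 14.3, 13.6, 12 and 13.2 in S-BM. Lat lay above S-BM, and M-BM 3 and M-BM 4 lay within the S-BM range. It rose in Lat by 0.56 ± 0.15 (adjusted p = 0.0058), and the 0.30 ± 0.15 in M-BM did not pass (adjusted p = 0.11). UHRF1, which carries DNA methylation through replication, had 58.3, 52.7, 53.6 and 38.2 in M-BM and 54.9, 57.8, 42.5 and 46.0 in Lat, against 33.3, 27.7, 32.8 and 40.1 in S-BM. It rose by 0.58 ± 0.15 in M-BM (adjusted p = 0.0048) and 0.57 ± 0.15 in Lat (adjusted p = 0.0042), with M-BM 4 below the highest S-BM library.

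The wider group of E2F, RB and G1 cyclin genes gave 7 higher and 5 lower of 22 in M-BM, and 9 higher and 3 lower in Lat. Without S-BM 3 and S-BM 4 they gave 5 higher and 4 lower in M-BM, and 7 higher and 4 lower in Lat. With all libraries 31.8% of the group was higher in M-BM and 40.9% in Lat, against 26.9% and 30.2% of all tested genes. Without the pair, 22.6% and 26.1% of all tested genes were higher. E2F7, an E2F family member that represses E2F target genes, was at 45.4 ± 8.4 in M-BM and 48.7 ± 5.8 in Lat, against 6.69 ± 0.76 in S-BM (SD, n = 4 each). Its log2 fold change was 2.58 ± 0.14 in M-BM (adjusted p = 2.4e-08) and 2.69 ± 0.14 in Lat (adjusted p = 1.2e-08). E2F7 reached a count of 10 in 8 of the 12 derivative libraries, none of them S-BM. It thus passed the filter only through the groups where it was high, and its change is not ranked against those of the members. CDK2, the kinase partner of cyclins E and A, averaged 44.5 ± 4.6 in M-BM and 45.0 ± 4.6 in Lat, against 72.9 ± 6.6 in S-BM. It fell in both, at −0.70 ± 0.11 (adjusted p = 0.00011) and −0.69 ± 0.11 (adjusted p = 8.7e-05) on the log2 scale, while cyclins E1, E2 and A2 rose.

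**Figure D4:**
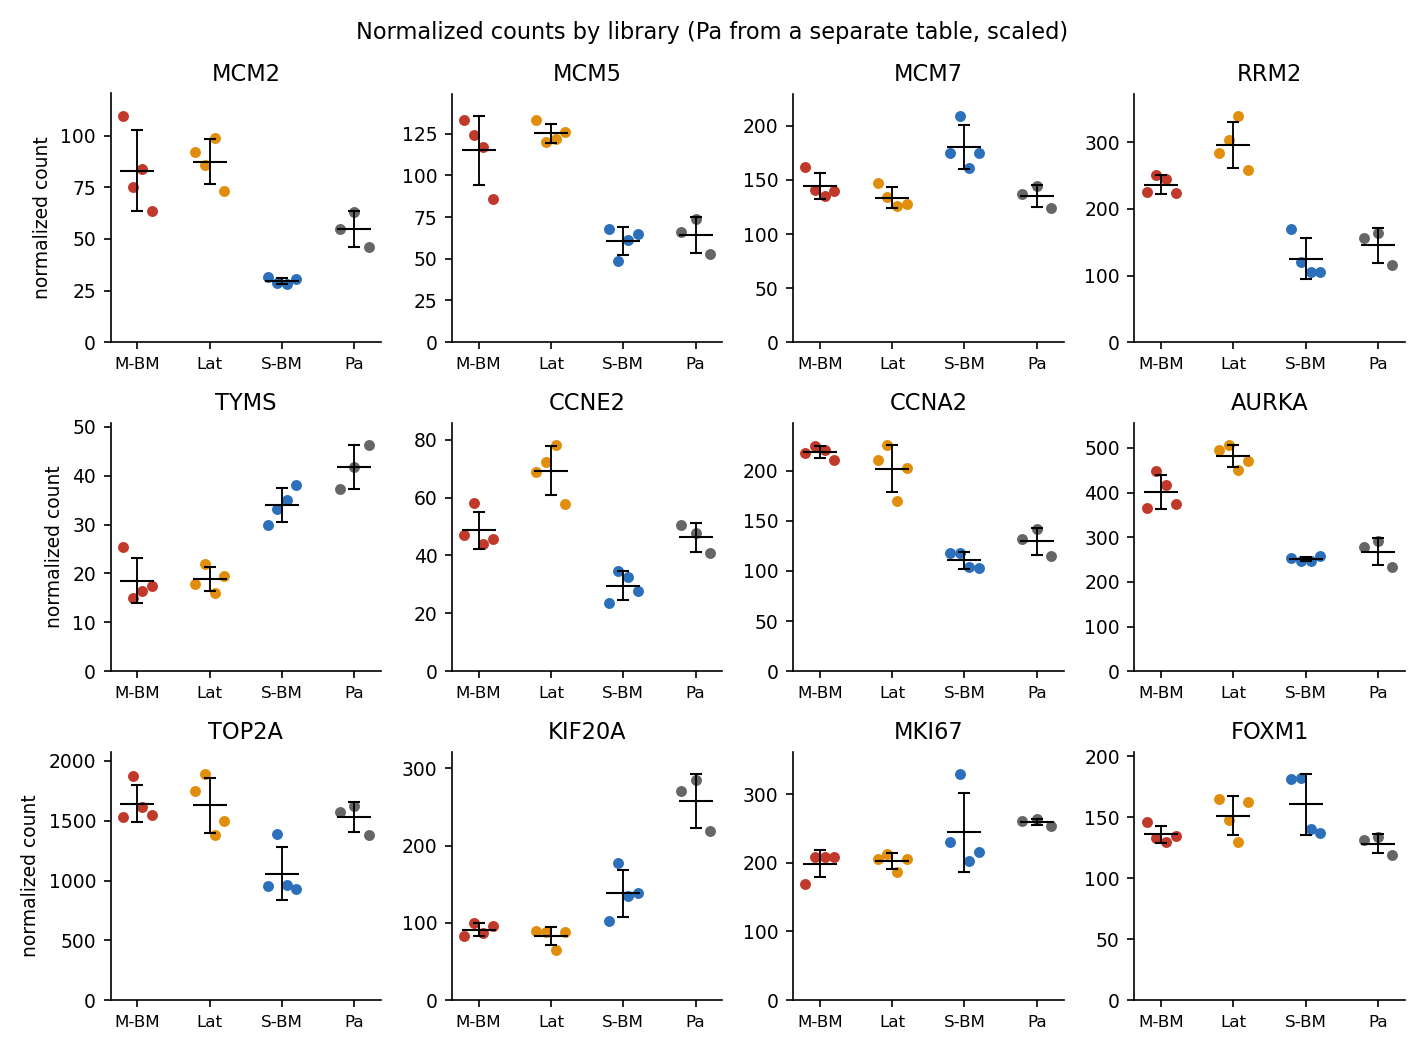
Normalized counts of 12 members in each library (points), with group mean and SD (bars), for M-BM, Lat, S-BM (n = 4 each) and Pa (n = 3, scaled from a separate table). MCM2, MCM5, RRM2, CCNE2, CCNA2 and AURKA are higher in M-BM and Lat than in S-BM without overlap, TYMS and KIF20A are lower without overlap, and MKI67 and FOXM1 overlap.

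The mitotic genes divided into genes that rose, genes that did not pass the test and KIF20A, which fell. Of the genes that drive entry, CCNA2, cyclin A2, had 217.6, 225.0, 221.1 and 210.4 in M-BM and 210.5, 225.5, 170.1 and 202.2 in Lat, against 118.3, 117.6, 103.5 and 102.7 in S-BM. Both groups lay wholly above S-BM. It rose by 0.98 ± 0.09 in M-BM (adjusted p = 4.9e-06), the largest mitotic change there, and 0.86 ± 0.09 in Lat (adjusted p = 5.4e-06). EXOSC9 shares 9.08% of the CCNA2 exon bases on the opposite strand and averaged 56.9 in M-BM and 52.1 in Lat, against 18.2 in S-BM, a difference whose part in the CCNA2 counts was not tested.

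CCNB1, cyclin B1, had 247.3, 292.4, 266.0 and 244.7 in M-BM and 274.9, 274.0, 196.0 and 285.9 in Lat, against 137.3, 170.0, 171.7 and 167.3 in S-BM. Its partner kinase CDK1 had 240.4, 266.7, 253.1 and 248.7 in M-BM and 308.1, 306.3, 244.2 and 275.5 in Lat, against 187.9, 205.6, 181.9 and 179.4 in S-BM. Neither overlapped with S-BM. CCNB1 rose by 0.70 ± 0.12 in M-BM (adjusted p = 0.00037) and 0.66 ± 0.12 in Lat (adjusted p = 0.00042), and CDK1 by 0.42 ± 0.09 (adjusted p = 0.0016) and 0.58 ± 0.09 (adjusted p = 9.7e-05). The second B cyclin, CCNB2, was at 0.14 ± 0.12 and 0.07 ± 0.12, and CDC25C, the phosphatase that activates CDK1, at −0.16 ± 0.14 and −0.28 ± 0.14, none of them called (adjusted p of 0.11 to 0.62).

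PLK1, the Polo kinase, had 89.8, 78.3, 95.1 and 84.2 in M-BM and 84.4, 81.9, 62.9 and 87.4 in Lat, against 84.8, 78.8, 88.6 and 88.5 in S-BM. FOXM1, the transcription factor of late cell cycle genes, had 146.0, 132.9, 129.8 and 134.4 in M-BM and 164.5, 148.0, 129.7 and 162.2 in Lat, against 181.4, 182.3, 140.6 and 137.3 in S-BM. Both genes overlapped between groups. PLK1 was at 0.03 ± 0.11 in M-BM and −0.12 ± 0.11 in Lat (adjusted p = 0.86 and 0.37), and FOXM1 at −0.23 ± 0.11 and −0.08 ± 0.11 (adjusted p = 0.11 and 0.57). FOXM1 was split within S-BM along the same line as ERBB2, and without S-BM 3 and S-BM 4 its change in M-BM was −0.42 (adjusted p = 0.0098). Among 26 further genes of mitotic entry and the anaphase-promoting complex, 13 were higher and 2 lower in M-BM, and 17 were higher and 2 lower in Lat. Set against S-BM 1 and S-BM 2 alone, 8 were higher and 2 lower in M-BM, and 9 were higher and 1 lower in Lat. With all libraries 50% of the list was higher in M-BM and 65.4% in Lat, against 26.9% and 30.2% of all tested genes. Against S-BM 1 and S-BM 2, 22.6% and 26.1% of all tested genes were higher. FBXO5, the early mitotic inhibitor of that complex, averaged 56.1 ± 4.0 in M-BM and 72.9 ± 10.4 in Lat, against 37.7 ± 5.7 in S-BM.

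AURKA, an Aurora kinase of the spindle poles, and its activator TPX2 rose in both comparisons. AURKA had 364.9, 449.1, 416.5 and 374.3 in M-BM and 496.5, 506.4, 451.2 and 471.3 in Lat, against 254.1, 247.3, 247.4 and 257.7 in S-BM. TPX2 had 443.7, 426.5, 426.8 and 410.1 in M-BM and 543.7, 532.6, 422.5 and 517.1 in Lat, against 283.4, 294.8, 285.5 and 269.5 in S-BM. The S-BM libraries lay close together and below all M-BM and Lat libraries for both genes. Pa, scaled as given below, had 277.7, 292.4 and 233.2 for AURKA and 297.7, 319.4 and 265.2 for TPX2. Pa 3 was below every S-BM library for both. AURKA rose by 0.67 ± 0.08 in M-BM (adjusted p = 3.1e-05) and 0.93 ± 0.08 in Lat (adjusted p = 1.2e-06), and TPX2 by 0.59 ± 0.09 (adjusted p = 0.00011) and 0.82 ± 0.09 (adjusted p = 4.6e-06).

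BIRC5, survivin of the chromosomal passenger complex, had 206.2, 200.2, 208.4 and 177.8 in M-BM and 212.8, 206.3, 258.0 and 189.0 in Lat, against 121.9, 136.7, 118.8 and 124.7 in S-BM. It rose by 0.65 ± 0.10 in M-BM (adjusted p = 0.00013) and 0.77 ± 0.10 in Lat (adjusted p = 2.1e-05). AURKB, the kinase of that complex, rose by 0.46 ± 0.11 and 0.61 ± 0.11, and the spindle motor KIF11 by 0.33 ± 0.09 and 0.48 ± 0.09, with no overlap with S-BM for any of the 3 genes. NUSAP1, a spindle microtubule protein, was called at 0.26 ± 0.11 in M-BM with an adjusted p of 0.0491 and at 0.32 ± 0.11 in Lat (adjusted p = 0.018). The Lat call ended without S-BM 3 or S-BM 4 (adjusted p = 0.058 and 0.051). The M-BM call ended without any 1 of S-BM 1, S-BM 3, S-BM 4 and M-BM 1 to M-BM 4, at adjusted p of 0.053 to 0.15. A gene model on the same strand covers 62.2% of the NUSAP1 exon bases and was not analysed here.

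KIF20A, a kinesin of the central spindle and cytokinesis, was the mitotic gene that fell. It had 83.0, 100.2, 87.2 and 95.6 in M-BM and 90.0, 88.3, 65.0 and 88.7 in Lat, against 102.0, 177.3, 134.5 and 139.3 in S-BM. M-BM 2 came close to S-BM 1 without reaching it. The change was −0.57 ± 0.15 in M-BM (adjusted p = 0.0063) and −0.71 ± 0.15 in Lat (adjusted p = 0.0011). Of 29 other spindle, motor and cytokinesis genes, 10 were higher and 1 lower in M-BM, and 10 were higher and 2 lower in Lat. The share higher, 34.5% in each, was near that of all tested genes, 26.9% in M-BM and 30.2% in Lat. The counts without S-BM 3 and S-BM 4 were 6 higher and 1 lower in each. All tested genes then gave 22.6% higher in M-BM and 26.1% in Lat. CKAP2L, a spindle protein, averaged 91.2 ± 7.5 in M-BM and 92.3 ± 16.9 in Lat, against 48.7 ± 7.7 in S-BM, a rise of 0.90 ± 0.14 in each.

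TOP2A, the topoisomerase that untangles sister chromatids, was the most abundant member by count. It had 1535, 1873, 1617 and 1548 in M-BM and 1746, 1890, 1384 and 1496 in Lat, against 952.2, 1386, 960.9 and 932.2 in S-BM. S-BM 2 reached the lowest Lat library and the other S-BM libraries were well below it. TOP2A rose by 0.65 ± 0.14 in M-BM (adjusted p = 0.0015) and 0.63 ± 0.14 in Lat (adjusted p = 0.0014). MKI67, the proliferation marker Ki-67, which coats mitotic chromosomes, had 169.6, 208.6, 208.3 and 208.8 in M-BM and 206.0, 213.5, 186.5 and 206.1 in Lat, against 229.9, 329.1, 202.5 and 215.2 in S-BM. It did not rise with TOP2A, and its −0.27 ± 0.13 in M-BM and −0.24 ± 0.13 in Lat were not called (adjusted p = 0.10 and 0.14). Without S-BM 3 the M-BM change was −0.35 (adjusted p = 0.0493), and without both S-BM 3 and S-BM 4 the changes were −0.47 in M-BM (adjusted p = 0.018) and −0.44 in Lat (adjusted p = 0.023).

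Among 20 tested condensin, cohesin and chromosome structure genes, 10 were higher and 2 lower in M-BM, and 13 were higher and 2 lower in Lat. The counts without S-BM 3 and S-BM 4 were 7 higher and 3 lower in M-BM, and 9 higher and 3 lower in Lat. With all libraries 50% of the list was higher in M-BM and 65% in Lat, against 26.9% and 30.2% of all tested genes. Without the pair, 22.6% and 26.1% of all tested genes were higher. NCAPH2, a condensin II subunit, averaged 44.5 ± 12.3 in M-BM and 50.3 ± 2.7 in Lat, against 19.4 ± 4.4 in S-BM (SD, n = 4 each). PDS5B, a cohesin regulator, averaged 32.0 ± 4.4 in M-BM and 28.9 ± 3.5 in Lat, against 69.7 ± 18.6 in S-BM. It fell in both, by −1.08 ± 0.16 (adjusted p = 8.9e-05) and −1.21 ± 0.16 (adjusted p = 2.1e-05) on the log2 scale.

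The spindle checkpoint was uneven. MAD2L1, the checkpoint protein MAD2, had 155.4, 159.2, 164.7 and 160.3 in M-BM and 156.8, 165.0, 147.1 and 140.5 in Lat, against 103.9, 93.8, 87.2 and 88.3 in S-BM. The groups did not overlap, and it rose by 0.77 ± 0.08 in M-BM (adjusted p = 9.5e-06) and 0.70 ± 0.08 in Lat (adjusted p = 9.7e-06). The checkpoint kinase BUB1 rose by 0.65 ± 0.10 in M-BM and 0.37 ± 0.10 in Lat. Its relative BUB1B was at 0.11 ± 0.11 and 0.10 ± 0.11, and the kinase TTK at 0.04 ± 0.13 and 0.03 ± 0.13, none of them called (adjusted p of 0.43 to 0.87).

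The kinetochore motor CENPE was called in M-BM at 0.43 ± 0.13 (adjusted p = 0.016) and not in Lat at 0.26 ± 0.13 (adjusted p = 0.11). Without M-BM 3 the M-BM call ended (adjusted p = 0.051), and without S-BM 2 the Lat change was 0.38 (adjusted p = 0.014). CENPF, a large kinetochore protein, reached 711.8 in its highest M-BM library and 677.4 in its highest Lat library, against 487.4, 778.6, 358.8 and 370.3 in S-BM, where S-BM 2 alone was above them. Its changes of 0.36 ± 0.20 in M-BM and 0.33 ± 0.20 in Lat were not called, but without S-BM 2 they were 0.59 and 0.57 (adjusted p = 0.0032 and 0.0033), and without S-BM 3 and S-BM 4 they were −0.02 and −0.05 (adjusted p = 0.93 and 0.84). The centromeric histone CENPA was at −0.14 ± 0.14 and −0.21 ± 0.14 (adjusted p = 0.42 and 0.22).

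At the exit from mitosis, UBE2C, the ubiquitin-conjugating enzyme of the anaphase-promoting complex, rose by 0.52 ± 0.13 in M-BM and 0.77 ± 0.13 in Lat. The activator CDC20 had 143.2, 132.5, 144.1 and 130.0 in M-BM and 115.8, 104.2, 112.3 and 116.6 in Lat, against 104.7, 125.7, 149.2 and 142.1 in S-BM. It was not called, at 0.09 ± 0.10 in M-BM and −0.20 ± 0.10 in Lat (adjusted p = 0.51 and 0.11), although without S-BM 1 the Lat change was −0.30 (adjusted p = 0.012). PTTG1, the securin that the complex destroys, was at 0.12 ± 0.15 and −0.0014 ± 0.15. Among 34 further kinetochore and checkpoint genes, 16 were higher and 5 lower in M-BM, and 17 were higher and 2 lower in Lat. Set against S-BM 1 and S-BM 2 alone, there were 13 higher and 5 lower in M-BM, and 15 higher and 5 lower in Lat. With all libraries 47.1% of the list was higher in M-BM and 50% in Lat, against 26.9% and 30.2% of all tested genes. Against S-BM 1 and S-BM 2, 22.6% and 26.1% of all tested genes were higher. SKA3, a microtubule-binding kinetochore subunit, averaged 70.5 ± 3.2 in M-BM and 87.5 ± 5.5 in Lat, against 29.6 ± 6.6 in S-BM, and rose by 1.25 ± 0.12 and 1.55 ± 0.12.

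M-BM and Lat were close to each other, and no member was called between them (limma). Of all tested genes 0.145% were called in that comparison, 14 of 9646, with 0.0933% higher and 0.0518% lower. At an unadjusted p below 0.05 there were 6 S phase and 4 mitotic members. DESeq2 on the recovered reads called 2 S phase members lower in M-BM, CCNE2 at −0.52 and FEN1 at −0.35 (adjusted p = 0.044 for each), and edgeR called no member. The log2 difference was negative for 23 of 26 S phase genes, with a median of −0.14. For mitotic genes it was negative for 10 of 26, with a median of 0.02. All tested genes had a median of 0.01.

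The members that came nearest to a difference were of both kinds. CCNE2, with the values given above, was at −0.50 ± 0.13 in M-BM against Lat (95% interval −0.79 to −0.21, adjusted p = 0.18). AURKA was at −0.27 ± 0.08 (interval −0.45 to −0.09, adjusted p = 0.27), and FEN1 at −0.33 ± 0.10 (interval −0.54 to −0.13, adjusted p = 0.21). CDC20 and BUB1 were on the other side, at 0.29 ± 0.10 (interval 0.07 to 0.52, adjusted p = 0.32) and 0.28 ± 0.10 (interval 0.07 to 0.50, adjusted p = 0.32). In 7 members the M-BM and Lat libraries did not overlap, with RRM2, CDC45, GINS2, FEN1 and AURKA lower and CDC20 and BUB1 higher in M-BM. Of all tested genes, 7.30% did not overlap, 3.85% higher and 3.45% lower.

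The parental line was measured in a table of its own that the authors normalized separately, so its values, scaled here by the median ratio of 1.02 over 8021 genes, are levels without a test. M-BM libraries lay wholly above Pa for 18 of 53 members and wholly below it for 8, against 33.9% above and 32.5% below among tested genes. Lat libraries lay above Pa for 21 and below it for 9, against 35.6% and 35.7%. S-BM libraries lay above Pa for 3 and below it for 12, against 21.2% and 21.5%. Pa 3 was the lowest Pa library for 48 of 53 members. Without it M-BM was above Pa for 18 and below it for 12, against 36.0% and 35.2% of tested genes, and Lat was above for 21 and below for 13, against 37.9% and 38.2%. S-BM was then above Pa for 3 and below it for 26, against 24.6% and 25.6%. With all Pa libraries and without S-BM 3 and S-BM 4, S-BM was above Pa for 5 and below it for 15, against 29.2% and 28.4%.

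Set against Pa, more S phase than mitotic genes were above it in M-BM and Lat. In Lat 15 of 27 S phase genes were above Pa and 3 below, while 6 of 26 mitotic genes were above and 6 below. Of all tested genes, 35.6% were above Pa in Lat and 35.7% below. In M-BM the counts were 13 above and 4 below for S phase genes and 5 above and 4 below for mitotic genes. The shares of all tested genes there were 33.9% above and 32.5% below. The median log2 level over Pa was 0.28 in M-BM and 0.51 in Lat for S phase genes, and 0.03 in M-BM and 0.07 in Lat for mitotic genes. For S-BM the medians were −0.11 for S phase and −0.19 for mitotic genes. Medians over all tested genes were 0.014 in M-BM, 0.0018 in Lat and −0.0030 in S-BM.

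Single genes placed Pa differently among the groups. MCM2 was at 54.7, 63.2 and 45.9 in Pa, between the S-BM and the M-BM and Lat libraries. KIF20A was at 270.7, 284.6 and 218.7 in Pa, above all derivative libraries. LIG1, at 66.0, 80.0 and 59.7 in Pa, was also above all of them. TOP2A was at 1576, 1622 and 1385 in Pa, within the M-BM and Lat range, and MCM7 at 137.1, 144.1 and 123.8, with Pa 3 just below the lowest Lat library. S-BM was above Pa for MCM7, CDC45 and FOXM1 alone among members.

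A per-library summary, the median over members of the log2 value minus the mean of each gene over the 12 derivative libraries, set the 2 gene groups side by side. S phase genes were at 0.08 ± 0.08 in M-BM and 0.21 ± 0.09 in Lat, against −0.27 ± 0.08 in S-BM (SD, n = 4 each). Mitotic genes were at 0.08 ± 0.07 in M-BM and 0.08 ± 0.14 in Lat, against −0.22 ± 0.14 in S-BM. The S phase level minus the mitotic level was 0.00 ± 0.11 in M-BM, 0.13 ± 0.13 in Lat and −0.05 ± 0.15 in S-BM, ranges that overlap. In Pa it was −0.26 ± 0.04 (n = 3), with S phase genes at −0.18 ± 0.14 and mitotic genes at 0.08 ± 0.10.

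Some libraries stood at an end of their group for many members. M-BM 1 had the highest value of its group for 14 of 27 S phase genes and the lowest for 14 of 26 mitotic genes. S-BM 2 had the highest value of its group for 18 of 26 mitotic genes and for 8 of 27 S phase genes. Lat 3 had the lowest value of its group for 21 of 26 mitotic genes, and for 11 of 27 S phase genes, while 9 S phase genes were highest there. Its S phase level exceeded its mitotic level by 0.30, and in S-BM 2 the difference was −0.24.

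**Figure D5:**
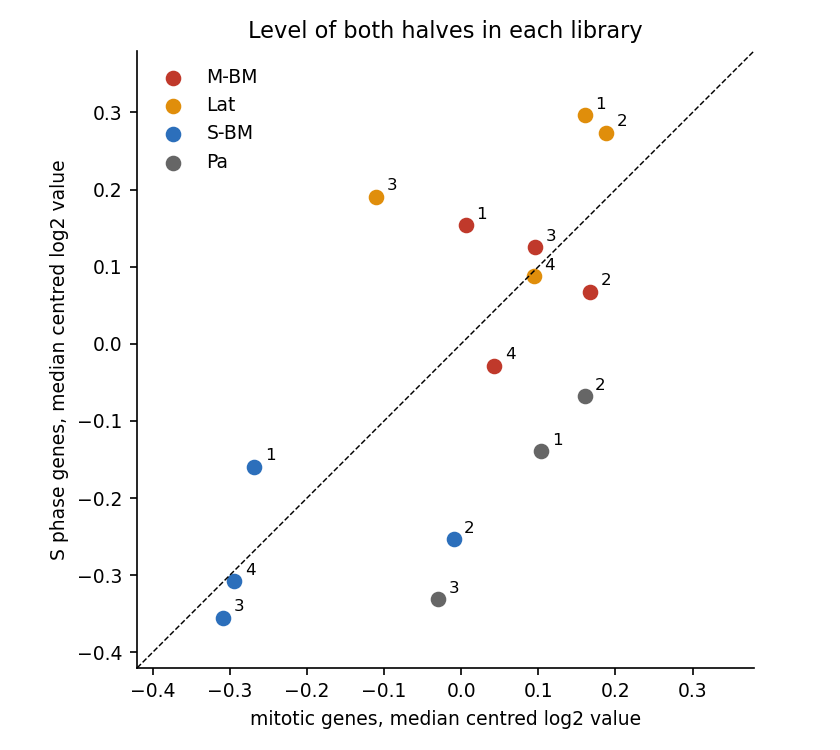
Median centred log2 value of S phase genes (vertical) against that of mitotic genes (horizontal) in each library, labelled by its number, for M-BM, Lat, S-BM and Pa; on the dashed line both are equal. The 3 Pa libraries lie below the line by 0.23 to 0.30, Lat 3 lies farthest above it at 0.30, and S-BM 2 sits to the right of the other S-BM libraries.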

How the data were processed

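Members and lists were chosen with earlier results of these data known. The deposited values are normalized counts, a signal that the authors scaled, the sources used here not naming the method. The aligner was Bowtie 0.12.2 and the build GRCh38, per the submitters' processing notes, and the labels' protocols name an RNeasy extraction and the TruSeq RNA v2 kit. S-BM, Lat and M-BM share 1 table and Pa has its own. Recovered reads per gene came out whole for 100% of values within 0.05 reads, at 13.25 to 21.84 M reads per library, a depth that covers counting error only.

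On log2(value + 1), 1 limma fit (3.58.1, R 4.3.3) with a variance trend covered the 12 derivative libraries, two-sided, with Benjamini-Hochberg adjustment. Fold changes on this scale understate those of low genes. On the recovered reads, edgeR 4.0.16 (quasi-likelihood, TMM) called 5748 genes in Lat and 5072 in M-BM against S-BM and 12 between M-BM and Lat, and limma called 5754, 5084 and 14. DESeq2 1.42.0 was a further alternative. The methods were also run on simulated counts with few changed genes and no split within a group, unlike these data, and no conclusion is drawn from that run. Exon lengths and overlaps are from GENCODE 29, positions and promoters from RefSeq on GRCh38.p14.

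Values in every library are printed for a fixed set of 20 members and for the 4 called members with the highest and lowest changes per comparison and gene group. From each further list the called genes with the highest and lowest change and no overlap between groups are named, some of which are not reported here. The other members are given by their changes. CENPF values in S-BM are printed because 1 library decided its call. Members with named pseudogenes, whose reads could be split, were AURKA, BUB1, CCNB2, CDC20, FEN1, MKI67, PCNA, RFC3, RRM2, TYMS and UBE2C.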

Additional observations from a re-analysis of the deposited data

Results flagged for a closer look

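In 13 of 168 groups of 4 libraries a single library stood far from the other 3, by Dixon's criterion, of which chance gives about 1 in 20. For S phase genes these were MCM3 in M-BM 1 at 204.2, MCM10 in M-BM 2 at 34.9, PCNA in Lat 4 at 271.4 and RRM1 in S-BM 2 at 223.3. For mitotic genes the libraries were M-BM 1 for MKI67 at 169.6, M-BM 3 for AURKB at 54.7 and M-BM 2 for NUSAP1 at 373.8. In Lat 3, CCNB1 was at 196.0, CCNB2 at 81.3 and KIF20A at 65.0, each below the other Lat libraries. In S-BM, TOP2A was at 1386 in S-BM 2 and CCNB1 at 137.3 in S-BM 1, and the mitotic summary of S-BM 2 was at −0.00948, above the others of that group at −0.31 to −0.27. What sets Lat 3 and S-BM 2 apart was not tested.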

How the results depend on the processing

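Of 3068 recomputed member values, 2966 kept their side of the threshold, 82 lost a call and 20 gained one. In 68 of them the sign differed, 23 against S-BM and 45 between M-BM and Lat, and none of these was called with or without the change of setting. Some counts of the further lists moved by more than 1.5 times without S-BM 3 and S-BM 4. Origin licensing genes higher in M-BM were 11 and then 4. Genes of mitotic entry and the anaphase-promoting complex higher in Lat were 17 and then 9. Among counts of members called against S-BM, those that moved by more than 1.5 times were small ones. S phase genes lower in Lat, 4, were 2 with quantile normalization and with the closest pairs averaged, and 2 to 3 with 1 library left out. Mitotic genes lower, 1 in each comparison, were 3 in Lat and 4 in M-BM without S-BM 3 and S-BM 4, 3 in M-BM with DESeq2, and 1 to 2 with 1 library left out. DESeq2 called 2 S phase genes lower in M-BM than in Lat, against 0, and 141 genes in all, against 14. Members below Pa in S-BM were 12, and 26 without Pa 3. The S phase minus mitotic level in Pa was −0.26, and −0.20 with means in place of medians. With promoters cut to 100 bases before the start, mitotic E2F and S phase CHR matches were each 0, against 2. The counts without overlap and the levels against Pa without S-BM 3 and S-BM 4, and the shares of all genes without Pa 3, were chosen after the data were seen. The causes were not tested. Libraries sharing a replicate number had residual correlations of −0.27 to 0.32, with 4 of 12 pairs above 0.1. Pairs with different numbers had −0.305 to 0.322, with 7 of 36 above 0.1. With so few pairs these values cannot decide whether the numbers pair libraries. With the replicate block the counts against S-BM were 20 higher and 4 lower S phase genes and 13 higher and 1 lower mitotic genes in Lat, and 15 higher and 4 lower, and 14 higher and 1 lower, in M-BM. The added call was LIG1 in M-BM (adjusted p = 0.030). The closest libraries, S-BM 3 and S-BM 4, differed by 4.07 times the sampling noise, and the next pair, Lat 1 and Lat 2, by 4.86 times. POLE2, with 103 to 212 reads in the derivative libraries, was left untested by the chosen threshold of 10 rather than by depth.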
